A study of Mus musculus with 24 samples.

Results

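Voltage-gated calcium and sodium channels and the hyperpolarization-activated HCN channels set how hippocampal neurons fire. Sodium channels start and carry the action potential, calcium channels turn depolarization into calcium entry that drives transmitter release and signals to the nucleus, and HCN channels pass an inward current near rest that steadies the membrane potential. A calcium channel is built from a pore-forming alpha1 subunit with beta and alpha2delta subunits that bring it to the membrane and tune its gating, and a sodium channel from a pore-forming alpha subunit with small beta subunits. The 29 genes described here encode such subunits, and were taken by symbol, with older names accepted, among 19751 genes with a named probe. Of these 29 genes, 27 had a matched probe. Scn3b and Scn9a were not analysed here, since no probe could be paired with them.

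RNA of mouse hippocampus was hybridized to 24 single-color arrays, 6 in each of 4 groups, and each array held a pool from 4 mice. F1 mice were C57BL/6J x 129S6/SvEv hybrids, called congenic in the labels, with C57BL/6J fathers and 129S6/SvEv mothers. F2 mice, of the same strains and called mixed, came from F1 sons mated to F1 daughters of control fathers. The fathers of the MD F1 mice, and the grandfathers of the MD F2 mice, had eaten a methyl donor diet with added zinc, vitamin B12, folic acid, betaine, choline and methionine for 6 weeks before mating, and those of the CD F1 and CD F2 mice a control diet. All F1 and F2 mice ate the control diet, and the labels give their age as 4 weeks while the study's text calls the tested offspring adult. Every slide carried 2 CD and 2 MD arrays of a single generation, 3 slides for F1 and 3 for F2, so diet and slide could be separated, but generation and slide cannot be told apart. The question was whether the diet of a father or grandfather was accompanied by a different level of channel mRNA in the hippocampus of the offspring.

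Signals are given as log2 of the fluorescence intensity after quantile normalization within a generation, by the brightest probe of each gene, and an MD minus CD difference is a log2 fold change. Of the 27 genes, 25 gave a signal well above the local background on at least 1 array of every group, and 24 did so on all 24 arrays; the exception among the 25, Cacna2d4, did so on 5 of 6 MD F2 arrays. Hcn4, the HCN channel of the cardiac pacemaker, was above background on 1 CD F2 array and on no array of the other groups, and its log2 signal was at most 1.65 in F1 and 4.56 in F2. Scn7a, an atypical sodium channel that senses sodium, was above background on 2 CD F1 arrays and on no other, with a log2 signal of at most 3.33 in F1 and 3.77 in F2. No fold change is given for these 2 genes.

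3 arrays stood apart from the others. MD F1 replicate 6 had a mean correlation of 0.985 with the other F1 arrays, while the other 11 F1 arrays had 0.992 to 0.994. In F2 the values were 0.977 for CD F2 replicate 6, 0.974 for MD F2 replicate 3 and 0.986 to 0.988 for the other 10 arrays. These 2 F2 arrays also had 28000 and 27383 spots well above background. MD F1 replicate 6 had the lowest F1 signal for 12 of the 25 measured channel genes and the highest for 7. It also had the highest F1 value, 0.16, of a sex measure, the average log2 signal of 4 genes on the Y chromosome (Uty, Kdm5d, Eif2s3y, Ddx3y) less the signal of Xist, a transcript of the inactive X. The sex of each pool is not in the labels. In F1 this measure ran from -2.30 to -1.90 in CD and from -2.15 to 0.16 in MD pools. In F2 it lay below 0 in 2 of 6 CD and 1 of 6 MD pools, and between -7.66 and 7.26 overall. With 6 arrays a group, their number limits how precisely any difference is known.

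In F1, the T-type calcium channel genes Cacna1i and Cacna1h had higher signals in MD than in CD pools and the sodium channel genes Scn1a and Scn3a lower ones, but no channel gene passed the test. By limma, 0 of the 27 genes were called at a false discovery rate (FDR) under 0.1, against 0.0203% of all genes, and these 4 genes had an unadjusted p under 0.05. That is near the background of F1, where 13.4% of all genes and 14.4% of all probes had such a p. The 2 higher genes stand beside 7.82% of all genes that were higher at this p, and the 2 lower genes beside 5.54%. The CD F1 and MD F1 signals overlapped for all 25 measured channel genes, and did not overlap for 1.67% of all genes. With the sex measure as a covariate 1 channel gene, Cacna1i, kept an unadjusted p under 0.05 (10.9% of all genes had one), and without CD F1 replicate 5 there were 2, Cacna1i and Scn1a (11.3%). With all 24 arrays normalized and fitted together, Scn1a (-0.22, FDR 0.496), Scn3a (-0.24, FDR 0.475) and Cacna1h (0.15, FDR 0.683) lost such a p at differences about as large, and Cacna1i kept it. With the mean of all probes of a gene, 3 of the 25 measured genes had such a p, all lower (Cacnb2, Scn1a and Scn8a), against 14.8% of all genes, so that Cacna1i, Cacna1h and Scn3a lost it. Cacna1h also lost it with slide or replicate as a block and without MD F1 replicate 6, where Cacna1i, Scn1a and Scn3a kept theirs. The permutation p given below for these 4 genes come from the arrays whose limma p chose the genes, so they are a description and no separate support, and they are not adjusted for the 27 genes.

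Cacna1i encodes Cav3.3, a low-threshold T-type channel that supports burst firing. Its log2 signal was 12.64 at lowest, 12.75 at the median and 12.87 at highest in CD F1, and 12.79, 13.19 and 13.41 in MD F1. 5 of 6 MD F1 arrays lay above the highest CD F1 array, and MD F1 replicate 1 lay among the CD F1 arrays. The difference was 0.42 (SE 0.0934, limma FDR 0.185), a fold of 1.34, and all 6 MD F1 arrays lay above the CD F1 mean (two-sided exact permutation p = 0.00649). Within the 3 slides it was 0.50, 0.43 and 0.34, and with slide as a block 0.42 (FDR 0.241). Without MD F1 replicate 1 it was 0.50 and passed the test (FDR 0.0741), and it also passed when all 24 arrays were normalized and fitted together (FDR 0.0797). Without MD F1 replicate 6 it was 0.40 (FDR 0.144), and with the sex measure as a covariate 0.33 (FDR 0.389). A second, separate probe of Cacna1i had a log2 difference of -0.06 in F1 (SE 0.170, FDR 0.893), so the probes of this gene did not share a direction. That probe was dimmer, with a CD F1 mean of 8.29 against 12.75 for the brightest. The mean of both probes was 0.18 (FDR 0.434). Without normalization between arrays the brightest probe gave 0.21 (FDR 0.234).

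Cacna1h encodes Cav3.2, the T-type channel known for its part in afterdepolarization and bursting of hippocampal pyramidal cells. Its log2 signal was 14.01, 14.19 and 14.24 (lowest, median, highest) in CD F1 and 14.19, 14.29 and 14.43 in MD F1. 4 of 6 MD F1 arrays lay above the highest CD F1 array and the groups overlapped narrowly. The difference was 0.15 (SE 0.0662, limma FDR 0.324; exact permutation p = 0.0173, two-sided), with 6 of 6 MD F1 arrays above the CD F1 mean. It was 0.21, 0.18 and 0.07 within the slides, 0.15 with slide as a block (FDR 0.359), 0.13 with the sex measure as a covariate, 0.13 without MD F1 replicate 6, and -0.05 without normalization between arrays. The second probe of Cacna1h gave -0.06 (FDR 0.674) and was dimmer, with a CD F1 mean of 6.99 against 14.14 for the brightest.

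Cacna1g, the T-type channel Cav3.1 of thalamic and other bursting cells, had mean log2 signals of 12.20 in CD F1 and 12.28 in MD F1. The 3 T-type genes thus had positive F1 differences of 0.08 to 0.42 by their brightest probes, while without normalization 2 of the 3 turned negative. In that setting the median F1 difference of all genes was -0.252, so its signs are read relative to that shift.

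Scn1a encodes Nav1.1, the sodium channel on which fast-spiking interneurons depend most. Its log2 signal was 13.34, 13.49 and 13.62 (lowest, median, highest) in CD F1 and 12.96, 13.27 and 13.41 in MD F1. 4 of 6 MD F1 arrays lay below the lowest CD F1 array and the groups overlapped. The difference was -0.23 (SE 0.0816, limma FDR 0.272; two-sided exact permutation p = 0.0108), and all 6 MD F1 arrays lay below the CD F1 mean. It was -0.35, -0.09 and -0.24 within the slides and -0.23 with slide as a block (FDR 0.297). It was -0.13 with the sex measure as a covariate (FDR 0.619) and -0.17 without MD F1 replicate 6. Without normalization it was -0.45 and passed the test (FDR 0.0695), where 16.2% of all genes were called. The second probe of Scn1a was lower too, at -0.33 (FDR 0.313). For this probe the difference was -0.21 without MD F1 replicate 6 and -0.17 with the sex measure as a covariate (FDR 0.712).

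Scn3a encodes Nav1.3, a sodium channel abundant in the developing brain. Its log2 signal was 12.50, 12.60 and 12.69 (lowest, median, highest) in CD F1 and 11.82, 12.44 and 12.55 in MD F1. 5 of 6 MD F1 arrays lay below the lowest CD F1 array, with MD F1 replicate 6 the lowest by far. The difference was -0.26 (SE 0.112, limma FDR 0.327; two-sided exact permutation p = 0.00433), with all 6 MD F1 arrays below the CD F1 mean. It was -0.48, -0.11 and -0.19 within the slides, -0.26 with slide as a block (FDR 0.348), -0.15 without MD F1 replicate 6 (FDR 0.257) and -0.08 with the sex measure as a covariate (FDR 0.807). Without normalization it was -0.49 and passed the test (FDR 0.0869). Of its 2 further probes, one gave -0.52 (FDR 0.198), with CD F1 signals of 11.56 to 12.06 that MD F1 signals of 10.85 to 11.50 did not reach, as for 1.79% of all probes, and the other gave 0.34 (FDR 0.462). The first stayed at -0.53 with the sex measure as a covariate (FDR 0.378) and at -0.49 without MD F1 replicate 6 (FDR 0.164). The other fell to 0.05 with that covariate and to 0.20 without that array. It was dimmer, with a CD F1 mean of 6.78 against 12.60 for the brightest. The part of pool sex in the differences of these 4 genes was not tested beyond the covariate.

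**Figure D1:**
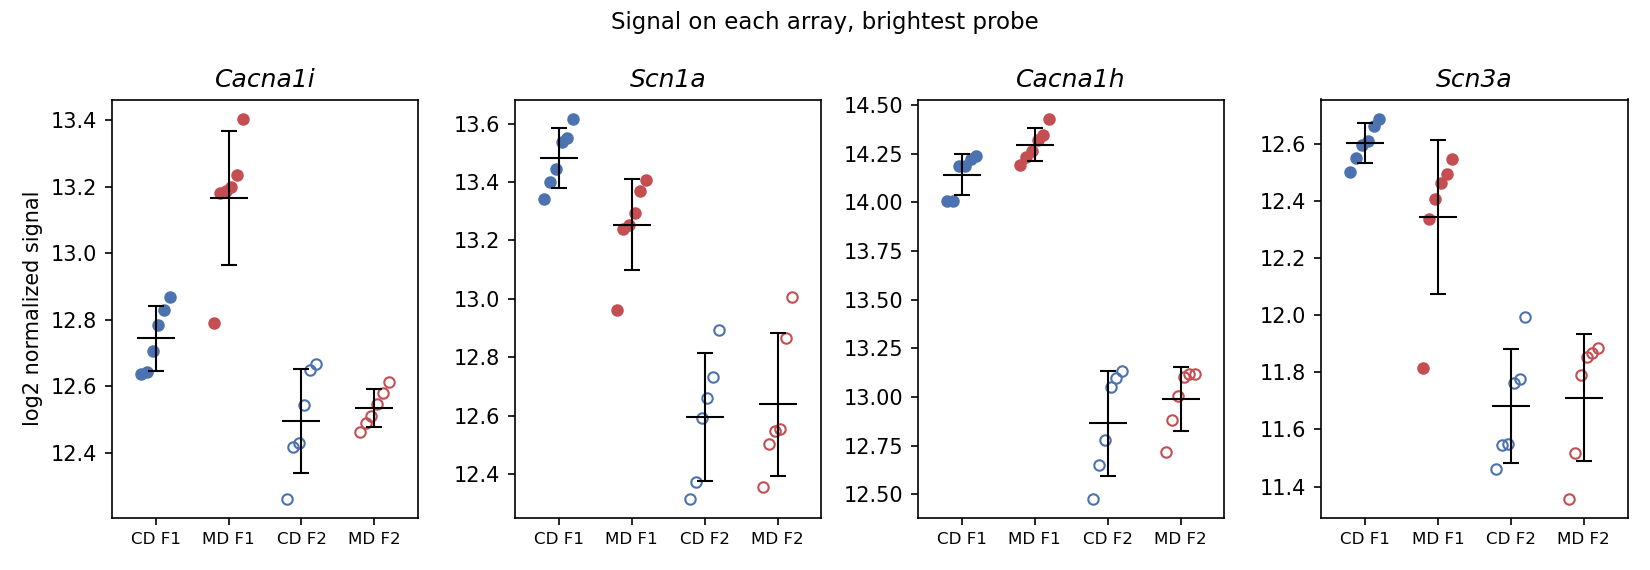
Log2 normalized signal (vertical axis) of Cacna1i, Scn1a, Cacna1h and Scn3a on each of 6 arrays per group (circles, filled in F1 and open in F2), with the group mean and its SD as horizontal mark and bars; generations were normalized separately, so F1 and F2 levels are not compared. Cacna1i lay at 12.64 to 12.87 in CD F1 and 12.79 to 13.41 in MD F1, and all 4 genes overlapped between the diets in both generations.

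The other calcium channel pores showed no common direction in F1. Leaving out a single array turned the F1 direction of 10 of the 25 measured channel genes in at least 1 fit. Without MD F1 replicate 6 it turned for 6 genes, Cacna1a, Cacna1d, Cacna2d1, Cacnb2, Scn4b and Scn8a. Among the L-type genes, Cacna1c (Cav1.2, which couples calcium entry to gene expression) had mean log2 signals of 5.60 in CD F1 and 6.13 in MD F1, but MD F1 replicate 6 stood at 7.99 and the other 5 MD F1 arrays at 5.64 to 5.93; without that array the difference was 0.16. Cacna1d (Cav1.3, which opens at lower voltages) had means of 9.94 and 9.87, with MD F1 replicate 6 at 9.07 and the other 5 MD F1 arrays at 9.92 to 10.17, and a difference of 0.08 without it. Cacna1a (Cav2.1, P/Q-type) and Cacna1b (Cav2.2, N-type) encode the channels of transmitter release, and Cacna1e (Cav2.3) the R-type channel. Their F1 differences were -0.02, -0.70 and -0.35, and without MD F1 replicate 6 they were 0.03, -0.59 and -0.14. The CD F1 mean of Cacna1b rested on CD F1 replicate 1 at 8.61, with the other 5 CD F1 arrays at 5.50 to 6.08 and a difference of -0.22 without it, and the FDR of these genes was 0.454 to 0.923. With the 75th percentile as the scaling, Cacna1a was positive, and with the sex measure as a covariate 1 of these 3 genes was too.

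Of the 4 alpha2delta genes, which encode the subunits that carry calcium channels to the surface and bind gabapentin in the case of Cacna2d1 and Cacna2d2, 2 had positive and 2 negative F1 differences, from -0.12 to 0.07. Cacna2d1 had mean log2 signals of 13.46 in CD F1 and 13.35 in MD F1, with MD F1 replicate 6 at 12.49 and the other 5 MD F1 arrays at 13.45 to 13.56; without that array the difference was 0.06. Of the 4 beta subunit genes, Cacnb1 and Cacnb4 had negative F1 differences (-0.28 and -0.21), Cacnb2 and Cacnb3 positive ones (0.05 and 0.01), and without normalization all 4 alpha2delta and all 4 beta genes were negative. Without MD F1 replicate 6, Cacnb2 was at -0.06 and Cacnb4 at -0.12. Cacnb1 held 8.43 on MD F1 replicate 3 against 9.40 to 9.65 on the other 5 MD F1 arrays. Its difference without that array was -0.10. Cacnb3 was tight in CD F1 (12.60 to 12.64) and wider in MD F1 (12.37 to 12.79).

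Among the other sodium channel genes, Scn2a (Nav1.2, of immature and unmyelinated axons) had mean log2 signals of 14.22 in CD F1 and 14.10 in MD F1. Scn8a (Nav1.6, the channel of the mature axon initial segment) had 10.30 and 10.37, with a difference of -0.06 without MD F1 replicate 6, and Scn4a, a muscle sodium channel, 7.23 and 7.41. The Scn4a difference of 0.19 ran from 0.11 to 0.28 with 1 array left out. At 0.28, without CD F1 replicate 1, it had an unadjusted limma p under 0.05 (FDR 0.276), as for 14.5% of all genes. The beta subunit genes Scn2b and Scn4b had F1 differences of -0.05 and 0.06, which were -0.07 and -0.02 without MD F1 replicate 6. Scn2b was at -0.01 without CD F1 replicate 3. Hcn2 and Hcn3, which encode 2 of the HCN pores, had F1 differences of -0.25 and -0.05, and Hcn3 was at 0.02 without MD F1 replicate 5. Hcn2 was 13.42 on MD F1 replicate 6 and 14.03 to 14.47 elsewhere in MD F1; leaving that array out gave -0.12. In all, 11 of 25 measured channel genes were positive and 14 negative in F1, with a median of -0.044. Over all genes 54.7% were positive, with a median of 0.019. Scaling by the 75th percentile gave 12 positive and 13 negative channel genes, beside 50.4% of all genes positive. No normalization gave 2 and 23, beside 7.28%.

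**Figure D2:**
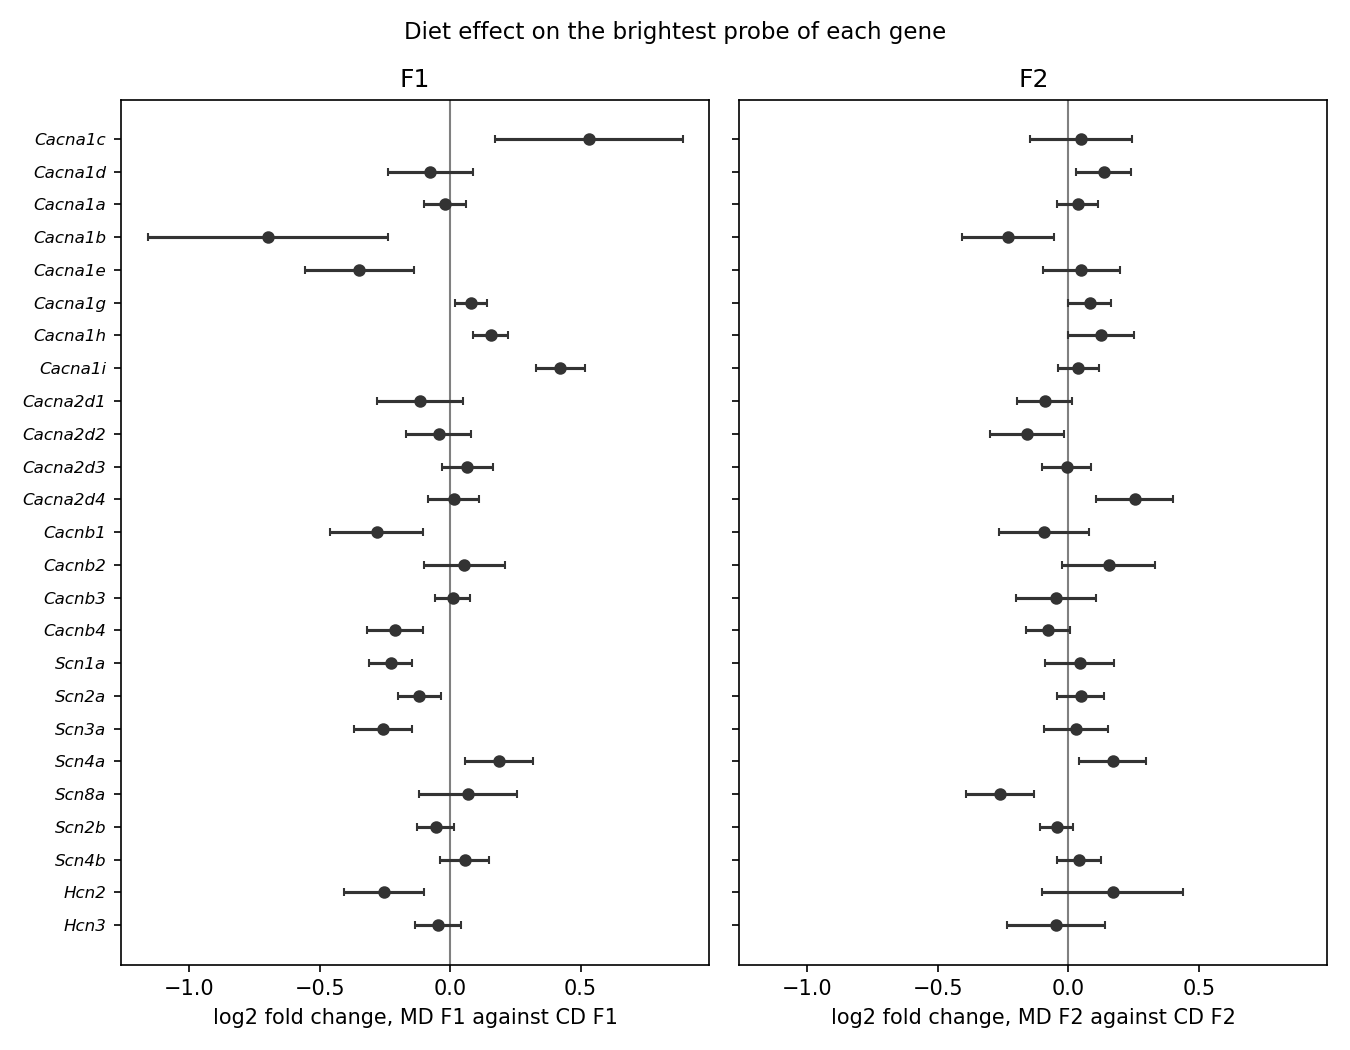
Log2 fold change of MD against CD (horizontal axis) in F1 (left) and F2 (right) for the 25 measured channel genes, by the brightest probe, with bars of 1 SE from limma; n = 6 arrays per group. Values ran from -0.70 (Cacna1b, but -0.22 without CD F1 replicate 1) to 0.53 (Cacna1c, but 0.16 without MD F1 replicate 6) in F1. In F2 they ran from -0.26 (Scn8a, but -0.17 without CD F2 replicate 6) to 0.25 (Cacna2d4). The signs of many genes shift without normalization, where 2 of 25, and 7.28% of all genes, were positive in F1.

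13 of the channel genes had more than 1 probe, and their 16 further probes add a second view. In F1 all probes of a gene shared a direction for 4 of the 13 genes, Cacna1a, Cacna1g, Cacna2d1 and Scn1a, and were split for 9. Without MD F1 replicate 6 the brightest probes of Cacna1a (0.03) and Cacna2d1 (0.06) turned positive. In F2 all probes of a gene shared a direction for 10 of the 13 and were split for 3, Cacna2d2, Hcn2 and Scn8a. In F1, none of the 16 further probes passed limma's test at FDR 0.1. At an unadjusted p under 0.05 there were 4, all lower, beside 14.4% of all probes at such a p and 7.48% lower. They belong to Scn1a, Scn2a, Scn3a and Scn8a; Scn2a and Scn8a are named here after their values were seen. The Scn8a probe had a log2 signal of 9.64 to 10.30 in CD F1 and 8.06 to 9.72 in MD F1, a difference of -0.70 (FDR 0.263). It was -0.47 without MD F1 replicate 6 and -0.21 with the sex measure as a covariate, while the brightest Scn8a probe gave 0.07 and the third -0.36 (FDR 0.397). This Scn2a probe gave -0.31 (FDR 0.271), against -0.12 by the brightest and 0.0004 by the third Scn2a probe. With the sex measure as a covariate, 1 of the 16 further probes kept such a p. All 24 arrays together gave 6, all lower, beside 6.04% of all probes lower. Leaving out MD F1 replicate 1 gave 6, 5 lower and 1 higher, beside 8.53% and 7.42% of all probes. No normalization gave 8, all lower, beside 35.1% of all probes lower. There, further probes of Cacna1h, Scn1a, Scn2a, Scn3a and Scn8a passed FDR 0.1, where 7952 of all 39429 probes were called, 7930 of them lower.

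In F2, the differences of the 25 measured channel genes lay between -0.26 and 0.25, and none passed the test. The limma test called 0 of 27 genes at FDR 0.1, against 0.00% of all genes, and 0 at an unadjusted p under 0.05, against 5.65% of all genes and 5.60% of all probes. Leaving out 1 array moved that last count to 2 (Cacna2d4 and Scn8a, without CD F2 replicate 2) or 1 (Cacna2d4, without MD F2 replicate 5), where 5.07% and 4.21% of all genes had such a p. The 2 diets overlapped for all 25 measured channel genes, and did not overlap for 0.380% of all genes. For Cacna1i the log2 signal was 12.26, 12.49 and 12.67 (lowest, median, highest) in CD F2 and 12.46, 12.53 and 12.61 in MD F2. The difference was 0.04 (limma FDR 0.984; two-sided exact permutation p = 0.597), and 0.06, 0.06 and -0.01 within the slides. For Scn1a it was 12.31, 12.63 and 12.89 in CD F2 and 12.36, 12.55 and 13.01 in MD F2, a difference of 0.04, with 1 MD F2 array above the highest CD F2 array. For Cacna1h it was 12.48, 12.91 and 13.13 in CD F2 and 12.72, 13.05 and 13.12 in MD F2, a difference of 0.13, which was 0.36 within 1 slide and 0.01 and 0.00 within the other 2. For Scn3a it was 11.46, 11.66 and 11.99 in CD F2 and 11.36, 11.82 and 11.89 in MD F2, a difference of 0.03. The limma FDR of these 3 genes was 0.938 to 0.997, and the 2 arrays that stood apart left no channel gene with an unadjusted p under 0.05 when both were left out.

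The F2 differences of the 25 measured genes were positive in 15 and negative in 10, with a median of 0.038, against 51.7% positive and a median of 0.0054 over all genes. Without normalization 12 were positive and 13 negative, with a median of -0.008, against 38.8% positive over all genes. The 3 T-type genes had positive F2 differences of 0.04 to 0.13, also under 75th percentile scaling and without normalization, but 1 array could turn or shrink them: Cacna1i was at -0.01 without CD F2 replicate 5 and Cacna1h at 0.05 without CD F2 replicate 4. Leaving out a single array turned the F2 direction of 8 of the 25 genes. Cacna2d4 had mean log2 signals of 5.83 in CD F2 and 6.09 in MD F2, and Scn8a 12.22 and 11.96, the latter the lowest difference (FDR 0.902). Of the 16 further probes 2 had an unadjusted p under 0.05, both higher in MD F2, where 5.60% of all probes had one and 3.22% were higher at it. They were a Scn2a probe (0.22) and a Scn8a probe (0.29), each at FDR 0.890 by limma. They are named after their values were seen. The count was 0 without CD F2 replicate 1, without MD F2 replicate 6 and without normalization.

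Whether the diet difference itself differed between the generations was tested by the interaction, the F1 difference minus the F2 difference, over all 24 arrays normalized together. No channel gene (0 of 27) was called at FDR 0.1 by limma, against 0.0253% of all genes, and 1 reached an unadjusted p under 0.05, against 7.99% of all genes and 8.29% of all probes. That gene was Cacna1i, with an interaction of 0.38 (SE 0.120, FDR 0.399), 0.40 with the sex measure as a covariate and 0.36 without MD F1 replicate 6. It was 0.18 without normalization (FDR 0.793), 0.11 with the mean of both probes (FDR 0.882) and -0.15 by the second probe alone (FDR 0.914), none with an unadjusted p under 0.05. For Scn1a it was -0.27, for Scn3a -0.28 and for Cacna1h 0.02, with FDR of 0.683 to 0.989. That Scn3a value was -0.18 without MD F1 replicate 6. Without CD F2 replicate 5 there were 4 such genes (Cacna1e, Cacna1i, Scn1a and Scn3a), without MD F2 replicate 1 there were 2 (Cacna1i and Scn1a), and without MD F2 replicate 3 there were 2 (Cacna1i and Scn3a), beside 8.61%, 8.06% and 8.45% of all genes. Among the 16 further probes 6 had an unadjusted p under 0.05, all negative and none past FDR 0.1, in Cacnb2, Scn1a, Scn2a, Scn3a and Scn8a, with the last holding 2. Of all probes, 8.29% had such a p and 4.59% were negative at it. Cacnb2, Scn2a and Scn8a are named here after their values were seen. The lowest, for Scn8a, was -0.99 (FDR 0.353). Without MD F1 replicate 6 it was -0.75, and 5 of the 6 kept such a p.

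Genes that work with these channels were read from 2 lists. Of 15 other channel subunits, among them the Cacng genes and Nalcn, 14 were measured in F1 and 13 in F2, since Scn10a, and in F2 Cacna1f, stayed at background throughout at least 1 group. By limma none was called at FDR 0.1 in F1, F2 or the interaction, and unadjusted p under 0.05 was seen for 2 genes in F1, 1 in F2 and 1 in the interaction, where 13.4%, 5.65% and 7.99% of all genes had one. Cacna1s, the L-type pore of skeletal muscle, had a log2 signal of 8.09, 8.13 and 8.19 (lowest, median, highest) in CD F1 and 8.30, 8.43 and 8.65 in MD F1, which do not overlap, as for 1.67% of all genes. The difference was 0.31 (SE 0.0688, FDR 0.185), the F2 difference was -0.14, and the interaction was 0.45 (FDR 0.300). Cacng7, one of the TARPs that accompany AMPA receptors, had 6.85 to 7.35 in CD F1 and 6.21 to 6.87 in MD F1, a difference of -0.41 (FDR 0.234). In F2, Cacng1, the gamma subunit of the muscle calcium channel, had 4.995 to 5.679 in CD F2 and 5.51 to 6.12 in MD F2, a difference of 0.52 (FDR 0.890).

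Of 22 channel partners, proteins that anchor, modify or sense the channels, 21 had a probe, all measured, and none was called at FDR 0.1 by limma in any of the comparisons; Cbarp was not analysed here. An unadjusted p under 0.05 was seen for 2 genes in F1, both lower, 1 in F2, higher, and 2 in the interaction, both negative, beside the same 13.4%, 5.65% and 7.99% of all genes. Fgf13, an intracellular protein that binds sodium channels, had a log2 signal of 12.39 to 12.97 in CD F1 and 11.67 to 12.62 in MD F1, a difference of -0.41 (FDR 0.291). Rimbp2, which ties calcium channels to the vesicle release site, had 6.68 to 7.63 in CD F1 and 4.52 to 6.71 in MD F1, a difference of -0.89 (FDR 0.288), which was -0.55 without MD F1 replicate 6 (FDR 0.177). Fgf14, a relative of Fgf13 at the axon initial segment, had 9.240 to 9.456 in CD F2 and 9.459 to 9.584 in MD F2, without overlap, as for 0.380% of all genes, a difference of 0.15 (FDR 0.890). Without CD F2 replicate 4 the Fgf14 difference was 0.13 (FDR 0.768) and its unadjusted p was no longer under 0.05. In the interaction the 2 genes were Fgf13 (-0.41) and Rimbp2 (-0.98).

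Hippocampus holds many cell types, and in whole tissue fewer cells of a type and less RNA per cell cannot be told apart. Markers of 10 cell types or regions were read in the same way. The summed level of the 5 neuronal markers, of which Snap25 was the brightest, was 18.47 on average in CD F1 and 18.27 in MD F1, and 17.72 and 17.68 in F2. The 6 thalamic markers, brightest Prkcd, summed to 12.01 in CD F1 (11.91 to 12.11) and 11.80 in MD F1 (11.67 to 11.88), so that the pools of the 2 diets did not overlap, with Rora lower by 0.32 (FDR 0.185) and Tcf7l2 by 0.26 (FDR 0.275). Of these 6 markers, 1 was higher and 5 lower in MD F1. This sum was 1 of 10 that were read, and the F1 diets did not overlap for 1.67% of all single genes. The choroid plexus markers, brightest Ttr, were higher in MD F1 for 6 of 6 genes (median 0.51) and lower in MD F2 for 6 of 6 genes (median -2.31). Their sum in single pools ran from 10.96 to 18.08 in CD F2 and from 11.35 to 17.69 in MD F2, and none of the 6 had an unadjusted p under 0.05 in either generation by limma. The neuronal markers Snap25, Syt1, Rbfox3, Tubb3 and Stmn2 and the hippocampal genes Prox1, Neurod6, Wfs1, Fibcd1 and Neurod2 were measured in every group, as the label hippocampus calls for. Wfs1, a CA1 gene, was lower by 0.25 in MD F1 (FDR 0.214), without overlap, as for 1.67% of all genes. The 5 hippocampal genes, brightest Neurod2, summed to 15.88 in CD F1 and 15.73 in MD F1, with 5 of 5 lower and MD F1 replicate 6 at 15.33, and to 15.71 and 15.74 in F2. By list, 1 neuronal marker was higher in MD F1 and 4 lower, 0 astrocyte markers higher and 4 lower, 1 microglial marker higher and 3 lower, 3 striatal markers higher and 3 lower, and 3 muscle markers higher and 0 lower. From these lists Syt1 (-0.42), Gfap (-0.35, and -0.23 without MD F1 replicate 6), Csf1r (-0.17) and Drd1 (-0.36) were lower and Ckm (0.58) higher in MD F1 at an unadjusted p under 0.05, as for 13.4% of all genes. In MD F2, 3 thalamic markers were higher and 3 lower, 2 microglial markers higher and 2 lower, and 5 striatal markers higher and 1 lower. The striatal sum, brightest Ppp1r1b, was nevertheless lower, at 13.64 in CD F2 and 13.38 in MD F2. Rora (-0.21), Csf1r (-0.16) and Ppp1r1b (-0.49) were lower there and Drd1 (0.31) higher at such a p, as for 5.65% of all genes, and 0 of the markers named were called at FDR 0.1 by limma. Csf1r lost such a p in F2 without MD F2 replicate 6, at -0.13. The summed levels of striatal, astrocyte, oligodendrocyte, microglial, endothelial and muscle markers differed by at most 0.20 between the F1 diets, and their part in the channel differences was not tested.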

How the data were processed

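Single-color array intensities were extracted by the authors with Agilent Feature Extraction (10.7.3.1 per the file headers), which subtracts background, and were deposited as 1 file per array; the processed signal was used here. Spots marked non-uniform or as population outliers were left out, none was saturated, log2 intensity was quantile-normalized within a generation (all 24 arrays for the interaction), and the spots of a probe were then averaged. That order was settled after the results of a first fit, which averaged before normalizing, were seen. Over all probes in F1 it gives 13 calls at FDR 0.1 and the first order 11; the 27 genes gave the same counts either way, 4 in F1, 0 in F2 and 1 in the interaction at an unadjusted p under 0.05. Probes were named through RefSeq and Ensembl accessions, and 43 probes matched 27 genes. limma 3.58.1 in R 4.3.3 was fitted to all 39429 probes in F1 and 39423 in F2 and the interaction, with Benjamini-Hochberg adjustment over all of them. Genes were named in full where the unadjusted limma p of the brightest probe was under 0.05 in a comparison; further probes named beyond that were chosen after their values were seen. Exact permutation tests, two-sided, were run on the 4 genes so named and on the 87 genes of the lists in both generations, 182 in all. The report prints those of the named genes only, and 0.00216 is the smallest p such a test can give. The channel genes and all lists were chosen with earlier results of these data known, and 2 genes of the lists are not reported here. Alternatives were 75th percentile scaling, no normalization, all 24 arrays together, normexp, the authors' table, irregular spots kept, dim probes left out, the mean of a gene's probes, slide or replicate as a block, the sex measure, FDR 0.05, the lh or rh code of the F2 labels as a block, and arrays left out.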

Additional observations from a re-analysis of the deposited data

Results flagged for a closer look

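Among the 4 genes named in full, 2 signals lay far from the other arrays of their group. The measure was the gap to the nearest array as a share of the group's range. Cacna1i had a log2 signal of 12.7915 on MD F1 replicate 1, while the other 5 MD F1 arrays held 13.18 to 13.41. Scn3a had 11.8154 on MD F1 replicate 6, while the other 5 MD F1 arrays held 12.34 to 12.55. These were 2 of 16 sets of 6 arrays, for 4 genes in 4 groups, and chance flags about 1 in 20 groups, which is 0.8 of 16. The other channel genes were not checked by this measure. Single arrays far from their group in Cacna1b, Cacna1c, Cacna2d1 and Cacnb1 are described above and are not in this count. The causes were not tested.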

How the results depend on the processing

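No channel gene was called in F2 or in the interaction under any alternative run with limma. In F1, no normalization called 5 genes (Cacnb1, Cacnb4, Hcn2, Scn1a, Scn3a), against 16.2% of all genes, and gave 11 with an unadjusted p under 0.05 (10 of them measured, all lower, and Scn7a at background), against 31.3%, in a setting where the median of all genes was -0.252. All 24 arrays together called 1 (Cacna1i), against 0.122% of all genes, and gave 2 (Cacna1i and Cacnb4), against 10%, and the sex measure as a covariate gave 1, against 10.9%. The normexp setting gave 5 in F1, the 4 genes and Cacnb4, against 13.5%. In the interaction, the mean of a gene's probes gave 4, all negative and without Cacna1i (Cacnb2, Scn1a, Scn2a, Scn8a), against 8.39% of all genes. The F1 difference of Cacna1h turned to -0.0481 without normalization. Its interaction turned to -0.170 without normalization, -0.0883 with the mean of its probes and -0.00303 with the sex measure. The causes were not tested.

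Leaving out each array in turn gave 0 to 1 calls in F1 and 0 in F2 and the interaction, where 0 to 0.309%, 0 to 0.00506% and 0.0152 to 0.132% of all genes were called. The counts at an unadjusted p under 0.05 ran from 2 to 5 in F1 (2 to 4 without Hcn4, which is at background), from 0 to 2 in F2 and from 1 to 4 in the interaction, where 10.2 to 14.6%, 4.21 to 7.13% and 6.73 to 9.43% of all genes had such a p. Directions turned for the F2 differences of Cacna1i (-0.00834 to 0.0728), Scn1a (-0.0303 to 0.104) and Scn3a (-0.0145 to 0.102), and for the interaction of Cacna1h (-0.0364 to 0.100028).

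Arrays of the same replicate number correlated at -0.05 to 0.21 in F1 and -0.17 to 0.19 in F2 after their group means were removed. In F1 no CD array correlated best with the MD array of its own number. In F2 those of replicates 1 and 2 did (0.18 and 0.19) and the others did not. The main fit did not pair arrays. With the replicate block, 3 genes had an unadjusted p under 0.05 in F1, 0 in F2 and 1 in the interaction, against 11.4%, 5.05% and 7.79% of all genes, and the F1 difference of Cacna1i was 0.42 (FDR 0.281).

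The normexp setting planned on mean spot signals was not run; median spot signals were used in its place. That setting, spots averaged before normalization, and, for single genes, the code block and the pair of F2 arrays left out together were chosen after seeing the data. Signal over background limits Hcn4 and Scn7a, for which no fold change is given.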
